A study of Mus musculus with 48 samples.

Results

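Postnatal day 42 (P42) lung was compared with embryonic day 15.5 (E15.5) lung in wild type C57BL/6 mice, in 8 of the 48 libraries of a survey of 6 mouse tissues. Lung was chosen by its tissue label, and every gene listed in the tables was used. Each stage had 2 poly(A) RNA-seq libraries, which measure messenger RNA, and 2 Ribo-seq libraries, which sequence the fragments that ribosomes shield from nuclease (footprints) in lysates of frozen tissue made with cycloheximide. The labels call the replicates biological and state neither the sex of the animals nor whether embryos were pooled. The p-values below therefore measure only the spread between replicate samples as labelled. That spread is pooled over the 6 tissues and both stages, and is not that of lung alone. Brain, retina, heart, kidney and liver of the same strain and stages, in the other 40 libraries, served to ask which changes differed in lung. The question set by the design is which genes changed between fetal and adult lung, at the level of the message and of its ribosomes.

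At E15.5 the mouse lung is near the end of its branching phase, when the epithelium forms a tree of tubules inside dividing mesenchyme and neither air sacs nor breathing exist yet. At P42 the organ has formed its alveoli. There, flat alveolar type 1 cells carry gas exchange next to capillary endothelium, cuboidal type 2 cells secrete surfactant, and resident macrophages clear the airspace. The airways above them are lined with club cells, which secrete and detoxify, and with ciliated cells, which move mucus.

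The deposited values are TPM (transcripts scaled to a fixed total per library) of exon reads for 22055 genes. TPM keeps no read totals, so neither depth nor the precision it would set is known. The listed genes held 83.1% and 93.4% of all TPM in P42 RNA-seq, against 82.0% and 81.8% in E15.5 RNA-seq. In Ribo-seq they held 61.1% and 53.2% at P42, against 39.2% and 40.3% at E15.5. Genes at 1 TPM or more numbered 13477 and 13146 in P42 RNA-seq, against 14154 and 14027 in E15.5 RNA-seq, and 13236 and 12293 in P42 Ribo-seq, against 12497 and 12535 in E15.5 Ribo-seq. Among genes at 50 TPM or more, the median absolute deviation between replicates was 0.177 log2 for P42 RNA-seq, 0.052 for E15.5 RNA-seq, 0.313 for P42 Ribo-seq and 0.0266 for E15.5 Ribo-seq. The last value was the lowest of the 24 groups of the survey, and the labels do not say how the E15.5 footprint samples were separated. Each stage was deposited in its own table, so stage and table cannot be told apart. The strand used in counting is not given in the sources used here, and 6540 listed genes have exons that overlap another gene. Values of these genes are uncertain, because reads of the partners could be shared. Among the genes named below they are Abca3, Ace, Adh1, Ccdc39, Cd74, Copg2, Cx3cr1, Cyp2f2, Ear1, Eln, Elovl6, F13a1, Fbn1, Fbn2, Fgf10, Gli3, Hopx, Igf2, Mest, Nppa, Pcsk6, Rtkn2, Shh, Top2a, Wnt7b and mt-Nd2.

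The lung label was checked against defining markers. The surfactant gene Sftpc was at 35283 and 32475 TPM at P42, against 3240.1 and 4037 TPM at E15.5 by RNA-seq. The alveolar type 1 markers Ager and Hopx, the club cell gene Scgb3a2, the ciliated cell regulator Foxj1, the endothelial gene Pecam1 and the lung mesenchyme regulators Tbx4 and Tcf21 were all above 10 TPM in the RNA-seq libraries of both stages. The club cell gene Scgb1a1 and the airspace macrophage genes Marco and Chil3 were under 4 TPM at E15.5, and far higher at P42 as given below.

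Genes of other organs differed between replicates in P42 Ribo-seq and in RNA-seq of both stages. In P42 Ribo-seq replicate 1, 20 genes of the kidney tubule, chosen after their values were seen, had footprints at 2.70% to 4.96% of their P42 kidney level, with a median of 3.22%. In replicate 2 the median of the same genes was 0.0117%. Their summed level was 1878 TPM in replicate 1 and 13.5 TPM in replicate 2 at P42, against 8.54 and 8.07 TPM in the E15.5 Ribo-seq libraries, and 18.3 and 13.5 TPM at P42 against 28.2 and 30.2 TPM at E15.5 by RNA-seq. Of the 18 that could be tested by footprint, 16 were called higher at P42 with both replicates and 0 were called higher without replicate 1. Over all genes, footprint calls in both directions were lost when either P42 Ribo-seq replicate was left out. More of the higher calls were lost without replicate 1, and more of the lower calls without replicate 2. In E15.5 RNA-seq replicate 1, summed markers of heart, thymus, squamous epithelium, liver, glia and neurons, lymphocytes and MHC class II stood above replicate 2. Summed cardiac muscle markers reached 471 and 229.6 TPM at P42, against 1439 and 522 TPM at E15.5 by RNA-seq, and 212 and 175 TPM at P42, against 1252 and 1264 TPM at E15.5 by Ribo-seq. Summed thymus markers were at 8.24 and 11.2 TPM at P42, against 25.6 and 4.63 TPM at E15.5 by RNA-seq. Summed squamous markers were at 2.48 and 1.87 TPM at P42, against 133 and 68.2 TPM at E15.5, and summed lymphocyte markers at 275 and 301 TPM at P42, against 44.1 and 14.6 TPM at E15.5. In P42 RNA-seq the replicates differed in cardiac markers, given above, in adipose markers, at 236 and 77.6 TPM at P42, against 5.18 and 3.27 TPM at E15.5, and in liver markers, at 227 and 125 TPM at P42, against 145 and 75.2 TPM at E15.5. With genes left out whose P42 lung footprint was below 5% of the kidney level, 2390 of the footprint calls higher at P42 and 3002 of those lower were left. For the other organs, their part in other results was not tested.

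**Figure D1:**
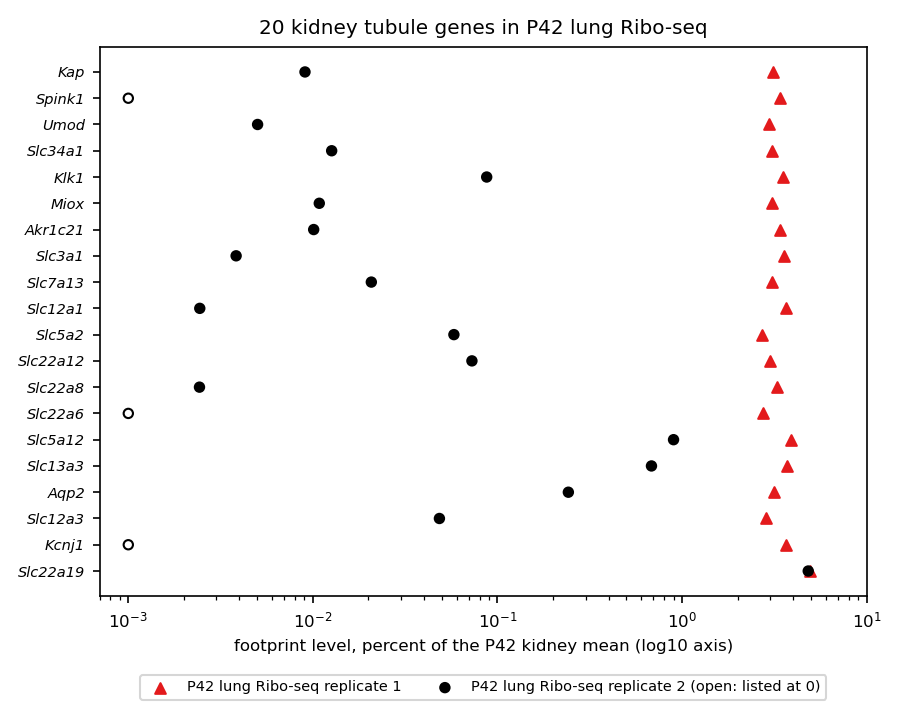
Footprint level in P42 lung of 20 kidney tubule genes, as a percentage of their mean P42 kidney footprint level (log axis), with a triangle for Ribo-seq replicate 1 and a dot for replicate 2; open symbols are listed at 0. The triangles lie in a band from 2.70% to 4.96%, and the dots have a median of 0.0117%.

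A gene was called when its change, P42 minus E15.5 on the scale of log2(TPM + 1), was at least 1 in size with an adjusted p below 0.05 in limma. By RNA-seq, 1445 of 14292 tested genes (10.1%) were called higher at P42 and 7651 (53.5%) lower. By footprint, 2471 of 13261 (18.6%) were called higher and 3027 (22.8%) lower. The median gene changed by -1.11 log2 by RNA-seq and by -0.21 by footprint, so the counts depend on where 0 is set. Much of the adult message was a single gene. Scgb1a1 held 22.0% and 33.9% of all RNA-seq TPM at P42, and almost none of it at E15.5. The 10 most abundant genes together held 34.5% and 49.4% at P42, against 7.55% and 7.89% at E15.5. With median-of-ratios scaling the RNA-seq split was 3472 higher and 2200 lower, and with centring on the median gene 3311 and 2425. With the listed genes rescaled to an equal sum the footprint split was 1589 higher and 4762 lower. For that reason each call was repeated under 6 scalings (the deposited values, median-of-ratios, mitochondrial genes left out, an equal sum, centring on the median gene and Scgb1a1 left out). Under every one of the 6, 1323 genes (9.26%) were higher and 2084 (14.6%) lower by RNA-seq, and 1589 (12%) were higher and 1854 (14%) lower by footprint. Both assays together called 1187 of 12960 genes (9.16%) higher and 2734 (21.1%) lower, or 965 (7.45%) and 1156 (8.92%) under every scaling. Genes were tested where at least 2 libraries of the assay reached 1 TPM and the mean of the 4 lung libraries did. A gene that passed through 1 stage alone had to differ, so the counts of list members below describe the lists and are no test of them. In bulk tissue, fewer cells of a type and less RNA per cell cannot be told apart. In the text below, "under every scaling" refers to these 6.

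**Figure D2:**
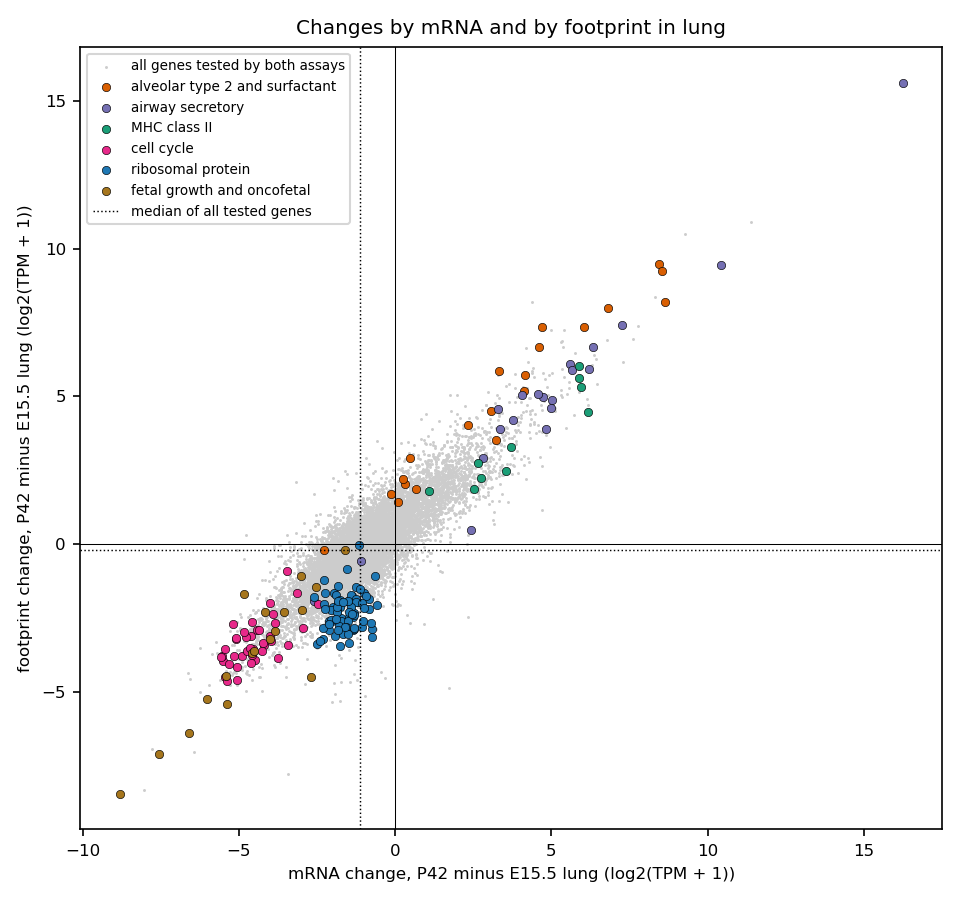
Change of each gene tested by both assays, P42 minus E15.5 lung in log2(TPM + 1), by RNA-seq (horizontal) and by Ribo-seq footprint (vertical), with members of 6 gene lists in colour and dotted lines at the medians of all genes (-1.11 and -0.21). Airway, alveolar and immune genes lie to the upper right, and cell cycle and fetal growth genes to the lower left.

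The largest rise in the adult lung belonged to a club cell secretion. Scgb1a1 (chr19:9083636-9087958, GRCm38), which encodes the secretoglobin that fills airway lining fluid, was at 220403 and 338799 TPM at P42, against 1.83 and 3.39 TPM at E15.5 by RNA-seq. By footprint it was at 160874 and 173418 TPM at P42, against 2.59 and 1.99 TPM at E15.5. It was thus nearly silent in both fetal pairs and the most abundant transcript of both adult pairs, a change of 16.24 ± 0.34 log2 (SE, limma adjusted p = 2.77e-29) by RNA-seq and 15.64 ± 0.72 by footprint. Its relative Scgb3a1 had 1647 and 1957 TPM at P42, against 0.324 and 0.300 TPM at E15.5 (10.42 log2). Scgb3a2, the secretoglobin that appears earliest in the airway, differed from both in that it was already present in the fetus, with 2891 and 2384 TPM at P42, against 340.4 and 416 TPM at E15.5. It rose by 2.80 log2 by RNA-seq. Its footprint change of 2.92 was called with all libraries, but not when any 1 of the 4 Ribo-seq libraries was left out.

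Of the 20 airway secretory genes, 18 rose by RNA-seq and 2 fell, with a median of 4.78 log2 against -1.11 for all genes. By footprint 17 rose and 1 fell, with a median of 4.93. All 18 rises by RNA-seq and 16 of the 17 by footprint held under every scaling. Cbr2, a carbonyl reductase abundant in lung, had 6029.7 and 5382 TPM at P42, against 35.3 and 36.9 TPM at E15.5. Cyp2f2, the cytochrome P450 that marks club cells, rose by 5.61 log2 by RNA-seq and 6.09 by footprint. The antimicrobial airway protein Bpifa1 was at 162 and 119.7 TPM at P42, against 2.01 and 0 TPM at E15.5. The exceptions were Upk3a, a uroplakin, which fell by 2.61 log2 by RNA-seq and by 1.92 by footprint, and the tight junction gene Cldn10. Cldn10 fell by 1.09 log2 by RNA-seq as deposited, but its sign turned under median-of-ratios scaling and under centring on the median gene.

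The enzymes that handle foreign compounds and oxidants mostly rose, as the secretory genes did. Of 20, 18 rose and 1 fell in each assay, all 19 under every scaling, with medians of 4.40 log2 by RNA-seq and 4.79 by footprint. Cyp2b10, a P450 that oxidises drugs, had 386 and 380.3 TPM at P42, against 0.321 and 0.127 TPM at E15.5. The glutathione transferase Gsta3 had 125 and 91.2 TPM at P42, against 1.03 and 0.619 TPM at E15.5. Both were near or below 1 TPM in the fetus and above 60 TPM in both adult libraries. Extracellular superoxide dismutase Sod3 had 389 and 383 TPM at P42, against 1.74 and 1.27 TPM at E15.5. The enzyme that ran the other way was Adh1, alcohol dehydrogenase, with 164 and 141 TPM at P42, against 777 and 829.6 TPM at E15.5. It was the highest of these 4 in the fetus, and it fell by 2.39 log2 by RNA-seq and by 2.04 by footprint.

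The motile cilia list was mixed. Of 34 genes tested by RNA-seq, 17 rose, all under every scaling, and 4 fell, 1 of them under every scaling (median 1.05 log2). Of 36 tested by footprint, 28 rose and 2 fell (median 2.02). Among those that rose, Sntn, a protein of the ciliary tip, had 42.5 and 38.2 TPM at P42, against 0.156 and 0.217 TPM at E15.5. Dynlrb2, a light chain of dynein, had 338 and 341 TPM at P42, against 29.5 and 36.5 TPM at E15.5, and the microtubule gene Tppp3 had 320.1 and 242 TPM at P42, against 30.2 and 28.8 TPM at E15.5. Among those that fell were genes of the centriole multiplication that precedes ciliation. Mcidas, a regulator of that step, had 1.26 and 1.17 TPM at P42, against 9.34 and 14.3 TPM at E15.5, a fall under every scaling. Deup1, a part of the deuterosome on which centrioles assemble, had 4.14 and 2.16 TPM at P42, against 13.4 and 16.2 TPM at E15.5, and fell by 1.97 log2 by RNA-seq, though not under every scaling. Foxj1, the regulator of motile cilia, was at 77.4 and 60.2 TPM at P42, against 33.5 and 38.4 TPM at E15.5, and its change of 0.91 log2 by RNA-seq was not called. Ccdc39, which sets the spacing of axonemal repeats, changed by -0.01 log2 by RNA-seq and by 2.09 by footprint.

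Promoter sequences are shown for members of the airway secretory, alveolar type 2 and motile cilia lists. For 27025 genes RefSeq (GRCm38.p6) gave the 250 bases before the transcription start, and both strands of each were searched for short motifs. CTCAAG, the core that the lung regulator NKX2-1 binds, lay in 5 of the 14 airway secretory promoters in the table (35.7%), in 2 of the 16 alveolar type 2 promoters (12.5%) and in 13.6% of all promoters. TGTTTAC, a core bound by forkhead factors, lay in 4 of the 16 alveolar type 2 promoters (25.0%), in 4 of the 29 cilia promoters (13.8%) and in 3.09% of all. GTTGCC, one arm of the X-box read by RFX factors of ciliated cells, lay in 13 of the 29 cilia promoters (44.8%), in 0 of the 14 airway secretory promoters and in 10.5% of all. A match is a description of the letters and not evidence that a factor binds. The promoters of Scgb3a1 (chr11:49663345-49663594, plus strand) and Sftpb (chr6:72304360-72304609, plus strand) are printed 5′ to 3′ on the strand of the gene, with CTCAAG or its reverse complement in capitals.
Scgb3a1: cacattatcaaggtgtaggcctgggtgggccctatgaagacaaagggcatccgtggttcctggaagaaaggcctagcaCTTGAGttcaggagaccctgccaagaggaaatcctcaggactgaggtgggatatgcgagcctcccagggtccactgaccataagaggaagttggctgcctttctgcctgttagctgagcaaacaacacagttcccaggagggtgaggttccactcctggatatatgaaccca
Sftpb: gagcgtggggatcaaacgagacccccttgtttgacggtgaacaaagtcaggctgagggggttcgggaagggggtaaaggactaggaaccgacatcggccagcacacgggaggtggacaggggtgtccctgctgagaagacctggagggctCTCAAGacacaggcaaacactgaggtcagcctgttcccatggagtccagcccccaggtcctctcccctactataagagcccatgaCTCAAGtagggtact
The match in Scgb3a1 starts 172 bases before the start, and those in Sftpb 100 and 15 bases before it. The promoters of the cilia genes Sntn (chr14:13670626-13670875, plus strand) and Dynlrb2 (chr8:116504765-116505014, plus strand) have GTTGCC or its reverse complement in capitals, 66 and 51 bases before the start.
Sntn: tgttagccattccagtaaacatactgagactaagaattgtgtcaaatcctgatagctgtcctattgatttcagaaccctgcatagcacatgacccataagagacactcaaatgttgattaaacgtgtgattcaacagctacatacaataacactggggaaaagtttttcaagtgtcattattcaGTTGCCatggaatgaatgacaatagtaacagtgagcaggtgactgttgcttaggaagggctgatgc
Dynlrb2: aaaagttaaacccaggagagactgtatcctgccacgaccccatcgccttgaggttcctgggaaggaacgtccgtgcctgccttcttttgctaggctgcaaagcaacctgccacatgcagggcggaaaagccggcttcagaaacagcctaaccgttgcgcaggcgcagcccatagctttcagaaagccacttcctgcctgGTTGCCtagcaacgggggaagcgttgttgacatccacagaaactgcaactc

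In the alveolus, the surfactant genes of type 2 cells had very different levels at E15.5, high for Sftpc and under 1 TPM for Sftpd. Sftpc (chr14:70520949-70524081), the hydrophobic surfactant protein C, had footprints at 36874 and 37769.7 TPM at P42, against 3171 and 3242 TPM at E15.5, and it rose by 3.23 ± 0.29 log2 (SE, limma adjusted p = 3.57e-12) by RNA-seq. Sftpb, the other hydrophobic protein, had 3530.1 and 3173 TPM at P42, against 155 and 233 TPM at E15.5. Of the collectins, which bind microbes in the airspace, Sftpa1 was at 1945 and 1468 TPM at P42, against 20.3 and 30.6 TPM at E15.5 and Sftpd at 603 and 421 TPM at P42, against 0.441 and 0.482 TPM at E15.5. The rises therefore ran from 3.23 log2 for Sftpc through 4.13 for Sftpb and 6.03 for Sftpa1 to 8.43 for Sftpd, in the reverse order of their fetal levels. The lysozyme Lyz1 was at 616 and 443 TPM at P42, against 0.384 and 0.284 TPM at E15.5 and the calcium-binding S100g at 249 and 178 TPM at P42, against 1.01 and 0.747 TPM at E15.5. The chitinase-like Chil1, also on the type 2 list, had 476 and 396 TPM at P42, against 0.173 and 0.192 TPM at E15.5.

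Of the 20 type 2 genes, 13 rose by RNA-seq, all under every scaling, and 1 fell, with a median of 3.27 log2. By footprint 19 rose, 18 of them under every scaling, and 0 fell, with a median of 4.85. The gene that fell was Etv5, the transcription factor of FGF signalling that maintains type 2 cells, with 57.9 and 37.2 TPM at P42, against 216 and 237 TPM at E15.5 by RNA-seq, a fall that did not hold under every scaling. Its footprints were at 60.5 and 41.9 TPM at P42, against 57.7 and 58.4 TPM at E15.5 and their change of -0.20 log2 was not called. Lamp3, a membrane protein of the lamellar bodies that store surfactant, had footprints at 796 and 492 TPM at P42, against 9.43 and 10.3 TPM at E15.5, a change of 5.85 log2 against 3.32 by RNA-seq. Abca3, the lipid pump of the same bodies, had 66.4 and 50.9 TPM at P42, against 36.2 and 47.3 TPM at E15.5 by RNA-seq, a change of 0.48 that did not reach the fold threshold. Its footprints were at 115 and 76.7 TPM at P42, against 11.2 and 11.8 TPM at E15.5, a rise of 2.93. The footprint change of Lamp3 exceeded its RNA-seq change by 2.53 ± 0.41 log2 (SE, limma adjusted p = 4.3e-06), and that of Abca3 by 2.45 ± 0.30 (limma adjusted p = 4e-08), both under every scaling.

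The enzymes of lipid supply did not follow the surfactant proteins. Of 20 lipid synthesis genes, 1 rose and 12 fell by RNA-seq, 3 of the falls under every scaling, and the median of -1.40 log2 lay near the -1.11 of all genes. The rise was Scd1, the desaturase of fatty acids, with 312 and 215 TPM at P42, against 12.7 and 12.9 TPM at E15.5. Elovl6, an elongase of fatty acids, had 1.85 and 1.64 TPM at P42, against 26.7 and 25.6 TPM at E15.5. The sterol enzyme Sqle had 7.05 and 5.04 TPM at P42, against 48.6 and 45.9 TPM at E15.5, and both Elovl6 and Sqle fell under every scaling. By footprint the list gave 6 rises and 1 fall (median 0.22), with Sqle not called. The median difference between the assays was 1.65 log2 over the 18 genes tested for it, against 0.81 for all genes, and 15 of them were called, 6 under every scaling.

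**Figure D3:**
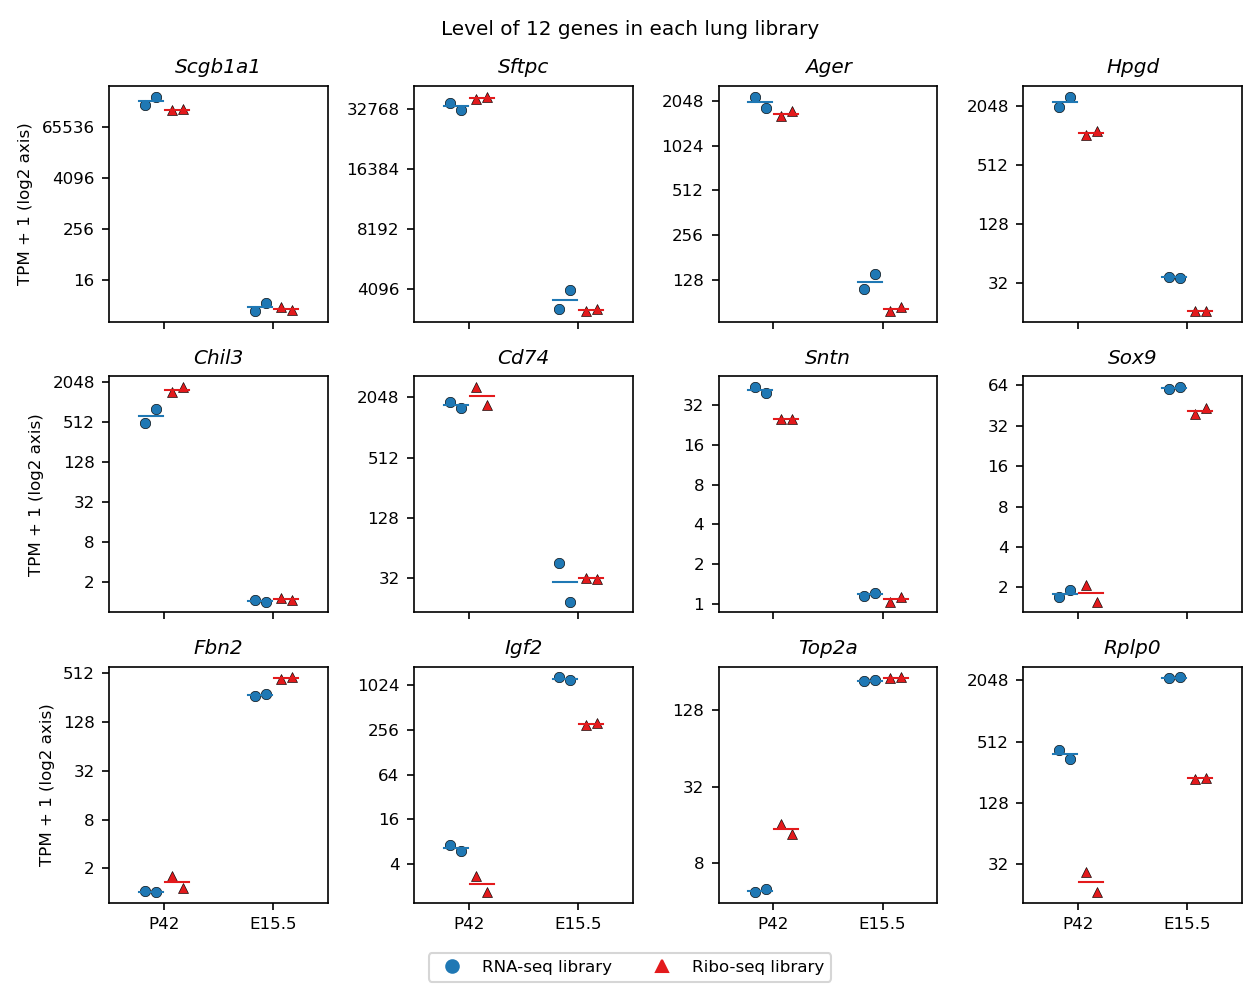
TPM + 1 of 12 genes in each lung library (log2 axis), P42 left of E15.5, with circles for RNA-seq, triangles for Ribo-seq and a line at the geometric mean of TPM + 1. In each panel and assay the 2 replicates lie closer to each other than to the other stage.

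Alveolar type 1 genes, which serve the thin gas exchange cell, mostly rose. Ager (chr17:34597862-34600936), the receptor that marks these cells in mouse lung, was at 2183 and 1842 TPM at P42, against 109 and 138 TPM at E15.5 by RNA-seq and at 1612 and 1744 TPM at P42, against 77.1 and 82.03 TPM at E15.5 by footprint. It rose by 4.02 ± 0.19 log2 (SE, limma adjusted p = 5.66e-19) by RNA-seq and 4.38 ± 0.46 by footprint. Aqp5, a water channel, was at 155 and 98.96 TPM at P42, against 0.485 and 0.518 TPM at E15.5 and thus nearly absent in the fetus. Hopx, a homeodomain cofactor, had 897 and 778 TPM at P42, against 80.9 and 101 TPM at E15.5. Rtkn2 rose by 2.35 log2 and Pdpn, the membrane glycoprotein podoplanin, by 1.15, both by RNA-seq and under every scaling. Of the 20 genes, 13 rose and 1 fell by RNA-seq (median 1.72 log2), 12 and 0 of them under every scaling. By footprint 19 rose and 1 fell (median 3.13), 16 and 0 of them under every scaling. The RNA-seq fall was Sema3e, a guidance ligand, with 11.2 and 8.28 TPM at P42, against 25.6 and 27.8 TPM at E15.5, while its footprints rose by 1.51 log2.

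Fluid and ion transport was mixed. Of 20 genes, 6 rose and 5 fell by RNA-seq (median -0.16 log2), and 10 rose and 1 fell by footprint (median 0.91). The sodium channel of the airspace rose, with Scnn1a at 194 and 170.0 TPM at P42, against 8.84 and 10.9 TPM at E15.5 and Scnn1b at 82.5 and 74.9 TPM at P42, against 7.69 and 9.37 TPM at E15.5. Lower in the adult were the tight junction gene Cldn4, at 7.73 and 7.28 TPM at P42, against 62.6 and 61.2 TPM at E15.5, and by RNA-seq the chloride channel Ano1, at 5.68 and 3.44 TPM at P42, against 52.1 and 58.8 TPM at E15.5. Cldn4 fell under every scaling in both assays. The footprints of Ano1 were at 33.4 and 15.1 TPM at P42, against 23.3 and 25.1 TPM at E15.5, with replicates more than 1 log2 apart at P42, and the sign of their change of -0.10 turned in 3 of the other scalings.

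Endothelial genes rose more often than they fell. Car4, the carbonic anhydrase of alveolar capillaries, had 376 and 410.4 TPM at P42, against 1.08 and 0.593 TPM at E15.5 by RNA-seq and 203 and 203 TPM at P42, against 0.209 and 0.240 TPM at E15.5 by footprint. Hpgd, which breaks down prostaglandins, had 1961 and 2519 TPM at P42, against 35.6 and 34.6 TPM at E15.5. Tmem100, a membrane protein downstream of BMP signalling, had 872 and 970.1 TPM at P42, against 29.01 and 31.9 TPM at E15.5, and Ace, the enzyme that forms angiotensin II, had 484 and 422 TPM at P42, against 21.2 and 25.2 TPM at E15.5. These 4 rose by 4.23 to 7.76 log2. Pecam1, present on all endothelium, had 340.3 and 377 TPM at P42, against 133 and 144 TPM at E15.5 and rose by 1.36, while Cdh5, the cadherin of endothelial junctions, changed by 0.20 by RNA-seq, not a call, and by 1.74 by footprint. Aplnr, the apelin receptor, was lower in the adult at 42.97 and 35.8 TPM at P42, against 238 and 239 TPM at E15.5. Of 30 endothelial genes, 19 rose and 2 fell by RNA-seq (median 1.24 log2), 16 and 1 of them under every scaling. By footprint 21 rose and 1 fell (median 1.76). The lung change was called above the mean change of the other 5 tissues for 23 of them by RNA-seq and 24 by footprint, and below it for 0 in either assay. Among all genes, 12.6% were above it by RNA-seq and 20.5% by footprint, and 20.3% and 6.15% were below it.

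Each of the immune lists had more rises than falls by RNA-seq. Among airspace macrophage genes, Chil3, a chitinase-like secretion, was at 491 and 807 TPM at P42, against 0.0594 and 0 TPM at E15.5 by RNA-seq and at 1468 and 1742 TPM at P42, against 0.157 and 0.0526 TPM at E15.5 by footprint. Marco, a scavenger receptor, had 18.8 and 41.8 TPM at P42, against 0.403 and 0.512 TPM at E15.5, and the ribonuclease Ear2 had 127 and 197 TPM at P42, against 2.56 and 3.49 TPM at E15.5. Ear1, a relative of Ear2, was listed at 0 in both fetal RNA-seq libraries and had 36.4 and 59.9 TPM in the adult pair. All 16 rises among the 20 genes of this list by RNA-seq (median 2.88 log2) and all 19 by footprint (median 3.45) held under every scaling, and 0 fell. The list of other monocytes and macrophages was mixed, with 7 rises and 3 falls of 19 by RNA-seq (median 0.07) and 10 rises of 20 by footprint (median 1.11). Lyz2, the lysozyme of myeloid cells, which type 2 cells make as well, had 6345 and 5247 TPM at P42, against 137 and 133 TPM at E15.5. By RNA-seq F13a1, a coagulation factor of fetal-type macrophages, had 5.42 and 3.94 TPM at P42, against 18.9 and 17.7 TPM at E15.5, and Cx3cr1, a chemokine receptor, had 4.19 and 3.03 TPM at P42, against 13.98 and 11.96 TPM at E15.5. Both fell as deposited and neither did so under every scaling.

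Lymphocyte, granulocyte and antigen presentation genes gave more uniform counts. Of 21 lymphocyte genes, 20 rose by RNA-seq, all under every scaling, and 0 fell (median 2.32 log2). By footprint 17 of 20 rose (median 2.19), 13 under every scaling. Of those footprint calls 5 were made without P42 Ribo-seq replicate 1, the library with kidney genes, and 11 without replicate 2. Cd79a, the signalling chain of the B cell receptor, had 56.5 and 74.4 TPM at P42, against 0.865 and 0.492 TPM at E15.5, and the chemokine Ccl5 had 41.1 and 38.7 TPM at P42, against 0.505 and 0.374 TPM at E15.5. Of 15 granulocyte genes, 12 rose in each assay and 0 fell (medians 1.83 and 2.53), for example the neutrophil protein Lcn2 at 79.4 and 89.8 TPM at P42, against 0.665 and 0.479 TPM at E15.5 and S100a8 at 159 and 254 TPM at P42, against 8.66 and 9.05 TPM at E15.5. All 10 genes of MHC class II, which presents peptides to helper T cells, rose in both assays and under every scaling (medians 3.63 and 3.01). Its invariant chain Cd74 had 1845 and 1618 TPM at P42, against 44.7 and 17.7 TPM at E15.5, and H2-Ab1 had 474 and 469 TPM at P42, against 13.02 and 2.03 TPM at E15.5, with the fetal pair far apart. Of MHC class I genes, 13 of 16 rose by RNA-seq and 13 of 15 by footprint, H2-K1 among them with 531 and 499 TPM at P42, against 22.3 and 22.8 TPM at E15.5. Interferon-induced genes had 13 rises and 2 falls of 21 by RNA-seq, and 18 rises of 20 by footprint. Under every scaling 12 rises and 0 falls were left by RNA-seq, and 16 rises by footprint. Ifit3 had 66.02 and 54.6 TPM at P42, against 1.11 and 0.565 TPM at E15.5. Iigp1, an immunity GTPase, had 30.4 and 31.1 TPM at P42, against 77.5 and 80.2 TPM at E15.5. It fell as deposited, but not under every scaling.

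**Figure D4:**
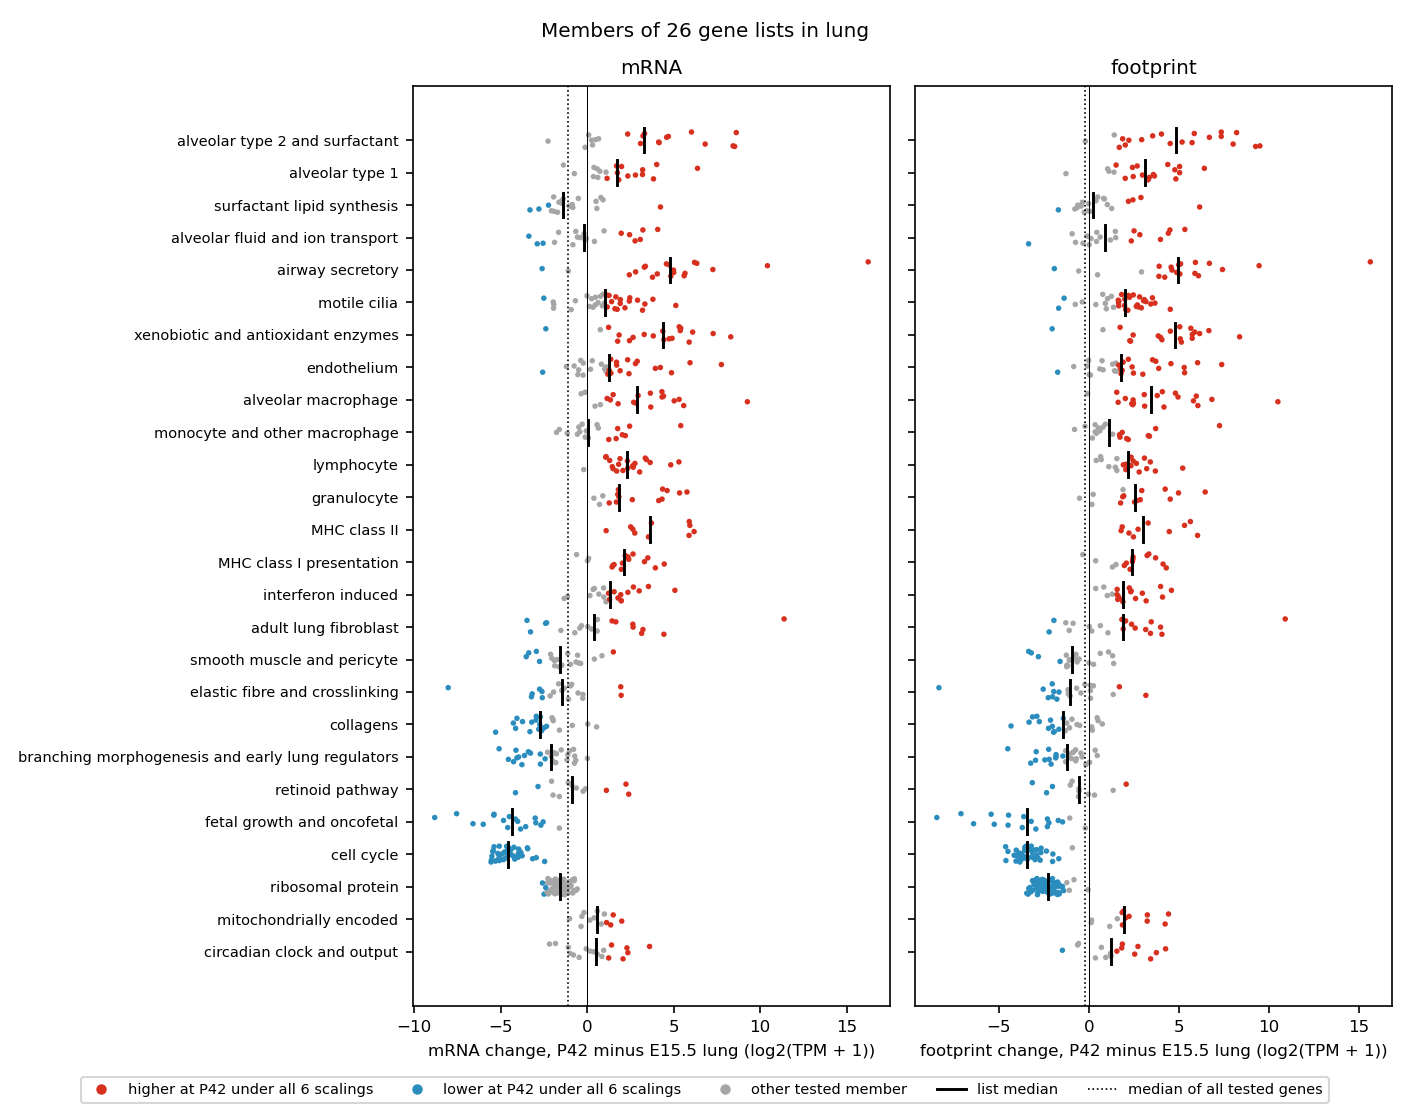
Change of each tested member of 26 gene lists, P42 minus E15.5 lung in log2(TPM + 1), by RNA-seq and by footprint, with red or blue dots for members called higher or lower under all 6 scalings, a black bar at the list median and a dotted line at the median of all genes. Alveolar, airway and immune lists lie right of the dotted lines, and cell cycle, fetal growth and collagen lists left of them.

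In the mesenchyme and its matrix, more genes fell than rose, as among all genes by RNA-seq (53.5% lower). Of 22 collagens, 0 rose and 19 fell by RNA-seq, 15 of them under every scaling (median -2.72 log2), and 15 of 23 fell by footprint (median -1.42), where 0 rose with all libraries and 3 without P42 Ribo-seq replicate 2. Col1a1, the main fibrillar collagen, had 157 and 138 TPM at P42, against 1216 and 1066 TPM at E15.5, and Col18a1, a collagen of basement membranes, had 8.62 and 4.68 TPM at P42, against 283 and 295 TPM at E15.5. The footprints of Col6a3, a microfibrillar collagen, were at 162 and 42.2 TPM at P42, against 194 and 199 TPM at E15.5, and their call was lost without P42 Ribo-seq replicate 2. Of 21 elastic fibre genes, 2 rose and 14 fell by RNA-seq, 2 and 6 of them under every scaling, and the median of -1.44 lay near the -1.11 of all genes. By footprint 3 rose and 11 fell (median -1.05). Fbn2, the fibrillin of developing tissue, was at 0.0423 and 0.0238 TPM at P42, against 261 and 279.7 TPM at E15.5, and fell by 8.04 log2. Fbn1, the fibrillin of adult microfibrils, had 10.7 and 7.68 TPM at P42, against 88.7 and 92.1 TPM at E15.5 by RNA-seq and 160.2 and 62.4 TPM at P42, against 222 and 224 TPM at E15.5 by footprint, where its call was lost without P42 Ribo-seq replicate 2. Elastin, Eln, had 127 and 154 TPM at P42, against 485 and 403 TPM at E15.5, and its fall of 1.65 by RNA-seq was not called under every scaling. The rises were Efemp1 and Mfap5, a fibulin at 134 and 79.2 TPM at P42, against 24.6 and 26.8 TPM at E15.5 and a microfibril glycoprotein at 45.4 and 27.96 TPM at P42, against 11.5 and 6.32 TPM at E15.5. Fmod, a proteoglycan that binds collagen, was at 4.71 and 2.12 TPM at P42, against 395 and 398 TPM at E15.5.

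Markers of adult lung fibroblasts were mixed, with 8 rises and 5 falls of 20 by RNA-seq (median 0.42 log2) and 12 rises and 4 falls by footprint (median 1.87). Inmt, a methyltransferase of these cells, had 3104 and 2417 TPM at P42, against 0 and 0.0561 TPM at E15.5, the second largest rise of all by RNA-seq among genes called by both assays. Gpx3, a secreted glutathione peroxidase, had 3228 and 3241 TPM at P42, against 171 and 129 TPM at E15.5. Lum, a proteoglycan, was lower in the adult at 6.82 and 3.31 TPM at P42, against 76.2 and 53.2 TPM at E15.5, and so was Wnt2, the ligand of fetal lung mesenchyme, at 11.4 and 6.496 TPM at P42, against 88.4 and 96.2 TPM at E15.5. Among all genes, 10.1% rose and 53.5% fell by RNA-seq, or 9.26% and 14.6% under every scaling. By footprint 18.6% of all genes rose and 22.8% fell. Smooth muscle and pericyte genes had 1 rise and 12 falls of 20 by RNA-seq (median -1.55), 1 and 4 of them under every scaling. By footprint 3 rose and 10 fell (median -0.93), with 0 rises without P42 Ribo-seq replicate 1 and 5 falls without replicate 2. Acta2, smooth muscle actin, had 210.3 and 100.3 TPM at P42, against 1188 and 1057 TPM at E15.5, and its activator Myocd had 0.130 and 0.0277 TPM at P42, against 11.6 and 11.2 TPM at E15.5. The rise by RNA-seq was Cox4i2, a cytochrome oxidase subunit of lung pericytes, with 220.3 and 217 TPM at P42, against 75.5 and 76.5 TPM at E15.5.

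The regulators of branching fell or stayed uncalled, and none rose in either assay. Of 29 tested by RNA-seq, 24 fell, 13 under every scaling (median -2.07 log2), and of 28 by footprint, 15 fell, 12 under every scaling (median -1.20). Sox9 (chr11:112782224-112787760), the factor of the distal tips, was at 0.698 and 0.905 TPM at P42, against 59.5 and 61.1 TPM at E15.5 by RNA-seq and at 1.08 and 0.566 TPM at P42, against 38.3 and 42.1 TPM at E15.5 by footprint. It fell by 5.09 log2 (limma adjusted p = 2.68e-21) by RNA-seq. Its ETS partner in FGF signalling, Etv4, had 0.143 and 0.103 TPM at P42, against 19.4 and 17.7 TPM at E15.5, and the tip ligand Wnt7b had 1.21 and 0.691 TPM at P42, against 45.6 and 43.3 TPM at E15.5. Of the hedgehog pathway, the epithelial ligand Shh had 12.4 and 10.8 TPM at P42, against 82.1 and 80.8 TPM at E15.5, and the mesenchymal effector Gli3 had 0.833 and 0.483 TPM at P42, against 29.2 and 31.8 TPM at E15.5. Both fell under every scaling in both assays. Fgf10, the mesenchymal growth factor that draws out the buds, had 11.3 and 7.75 TPM at P42, against 38 and 39.1 TPM at E15.5, and its fall of 1.93 log2 did not hold under every scaling. Nkx2-1, the factor that specifies lung epithelium, had 163 and 182 TPM at P42, against 322 and 377 TPM at E15.5. It fell by 1.01 log2 as deposited, and its sign turned under median-of-ratios scaling and under centring on the median gene.

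Retinoid genes were mixed, with 3 rises and 6 falls of 13 by RNA-seq (median -0.89 log2) and 2 rises and 4 falls of 12 by footprint. Among all genes, 10.1% rose and 53.5% fell by RNA-seq (median -1.11), and 18.6% rose and 22.8% fell by footprint. The binding proteins Crabp1 and Crabp2 fell under every scaling, Crabp1 having 0.138 and 0.133 TPM at P42, against 22.7 and 15.99 TPM at E15.5. Dhrs3, which reduces retinal, rose with 133 and 151 TPM at P42, against 26.9 and 25.2 TPM at E15.5. Cyp26b1, which degrades retinoic acid, had 49.2 and 46.4 TPM at P42, against 9.62 and 9.02 TPM at E15.5, and its footprint call was lost without P42 Ribo-seq replicate 2.

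Fetal growth genes were lower in the adult. Of 20 genes 18 were tested by RNA-seq and all of these fell, 17 under every scaling (median -4.33 log2), and 17 of 18 fell by footprint, 16 under every scaling (median -3.42). Dlk1, an imprinted membrane protein of progenitors, was at 0.00980 and 0.0504 TPM at P42, against 473 and 453 TPM at E15.5, the largest fall among genes called by both assays, at -8.81 ± 0.23 log2 (SE, limma adjusted p = 3.61e-26). Igf2, the fetal insulin-like growth factor, was at 6.33 and 4.98 TPM at P42, against 1279.8 and 1198 TPM at E15.5, but shares exons with Igf2os and Gm49394. The imprinted hydrolase Mest, whose exons overlap Copg2, had 13.1 and 11.5 TPM at P42, against 1309 and 1272 TPM at E15.5. Ptn, the heparin-binding pleiotrophin, had 0.743 and 0.426 TPM at P42, against 123 and 82.2 TPM at E15.5. Outside the list, the embryonic claudin Cldn6 had 0.368 and 0.308 TPM at P42, against 284 and 306 TPM at E15.5, and Cym, the milk-clotting protease chymosin, had 0.179 and 0.173 TPM at P42, against 119 and 87.4 TPM at E15.5. The footprints of Cym were listed at 0 in both P42 libraries, against 130.5 and 135 TPM at E15.5. The embryonic globin Hbb-y was at 0.0876 and 0.169 TPM at P42, against 126 and 97.8 TPM at E15.5, while the adult globin Hbb-bs was at 4199 and 4741 TPM at P42, against 2294 and 2135 TPM at E15.5 by RNA-seq, a rise that did not hold under every scaling. Its footprints were at 559.6 and 1723 TPM at P42, against 1307 and 1285 TPM at E15.5, and their change of -0.40 log2 was not called. Of 13 erythroid genes tested by footprint, 0 rose and 6 fell.

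Genes of proliferation were lower in the adult. All 40 cell cycle genes fell by RNA-seq and 39 of 40 by footprint, each under every scaling, with medians of -4.59 and -3.42 log2. Top2a (chr11:98992943-99024189), the topoisomerase of dividing cells, was at 3.699 and 3.96 TPM at P42, against 217 and 220.0 TPM at E15.5 by RNA-seq and at 15.1 and 12.5 TPM at P42, against 231 and 232 TPM at E15.5 by footprint, and fell by 5.51 and 3.98 log2. Ccnb1, the cyclin of mitotic entry, had 0.776 and 0.634 TPM at P42, against 78.1 and 77.8 TPM at E15.5. Its kinase Cdk1 had 1.74 and 1.99 TPM at P42, against 125 and 124 TPM at E15.5. The mitotic motor Kif11 had 2.13 and 1.75 TPM at P42, against 133 and 142 TPM at E15.5. The footprint changes were smaller than the RNA-seq changes for each of these 4 genes, but the adult RNA-seq levels were under 5 TPM, so the difference between assays was not tested for them. The test against the other tissues is described below. In it the signed lung change was above the mean of the others for 1 of 40 cell cycle genes by RNA-seq and 8 by footprint. Where both fell, above means a smaller fall in lung. The change was below that mean for 4 genes by RNA-seq and 1 by footprint. Under every scaling 0 by RNA-seq and 3 by footprint were above, and 1 in each assay was below. Over all genes, 12.6% by RNA-seq and 20.5% by footprint were above, and 20.3% and 6.15% below.

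The promoters of 2 cell cycle genes show the motifs known for that group. CCAAT, the box bound by NF-Y, lay in 25 of the 33 cell cycle promoters in the table (75.8%), in 16 of the 56 ribosomal protein promoters (28.6%) and in 34.5% of all promoters. TTTGAA, the cell cycle homology region, lay in 8 of the 33 (24.2%), in 3 of the 56 (5.36%) and in 16.3% of all. Its share was as high in the alveolar type 2 promoters, at 4 of 16 (25.0%). It lay in 2 of the 14 airway secretory promoters (14.3%) and in 1 of the 29 cilia promoters (3.45%). In Top2a (chr11:99024190-99024439, minus strand) and Cdk1 (chr10:69352913-69353162, minus strand), printed 5′ to 3′ on the strand of the gene, capitals mark both motifs on either strand. The 2 motifs do not overlap there.
Top2a: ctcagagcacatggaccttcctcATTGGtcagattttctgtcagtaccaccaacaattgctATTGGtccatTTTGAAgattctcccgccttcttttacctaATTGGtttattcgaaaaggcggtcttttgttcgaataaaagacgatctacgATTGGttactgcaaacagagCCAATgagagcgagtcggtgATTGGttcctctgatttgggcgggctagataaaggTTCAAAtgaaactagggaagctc
Cdk1: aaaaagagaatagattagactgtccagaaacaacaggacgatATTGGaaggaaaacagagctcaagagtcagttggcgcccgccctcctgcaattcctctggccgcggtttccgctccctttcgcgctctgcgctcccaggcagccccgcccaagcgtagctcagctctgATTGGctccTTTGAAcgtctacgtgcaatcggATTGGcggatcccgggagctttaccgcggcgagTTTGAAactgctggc
Top2a holds 6 CCAAT boxes and 2 TTTGAA motifs, and Cdk1 3 and 2.

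Ribosomal protein genes, whose messages carry the growth-regulated 5′ oligopyrimidine tract, had a lower median change by footprint than by RNA-seq. Rplp0, a protein of the ribosomal stalk, was at 418 and 348 TPM at P42, against 2126 and 2171 TPM at E15.5 by RNA-seq and at 25.9 and 16.1 TPM at P42, against 221 and 224 TPM at E15.5 by footprint. Of 76 genes, 66 fell by RNA-seq, but only 3 of them under every scaling, and the median of -1.56 log2 was 0.45 below that of all genes. By footprint 74 fell, 72 under every scaling, with a median of -2.30 against -0.21 for all genes. The difference between the assays (footprint change minus RNA-seq change) had a median of -0.77 log2 over the 76, against 0.81 over the 8855 genes tested. It was called below 0 for 25 of the 76, each under every scaling, and above 0 for none. Over all 8855 genes, 117 (1.32%) were called below 0, and 106 (1.2%) under every scaling. The signed lung change was below the mean change of the other tissues for 6 ribosomal protein genes by RNA-seq, 1 of them under every scaling, and above it for 3 by footprint, 0 of them under every scaling. The rest were not called. Among all genes, 20.3% were below that mean by RNA-seq and 20.5% above it by footprint.

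Over all genes, the footprint change exceeded the RNA-seq change in 3498 of 8855 (39.5%), or in 476 (5.38%) under every scaling. The 5 largest differences above 0 were all of genes that share exons with another, Copg2 first. It had 12.6 and 9.65 TPM at P42, against 405 and 391 TPM at E15.5 by RNA-seq and 33.1 and 21.7 TPM at P42, against 30.03 and 31.3 TPM at E15.5 by footprint, and its exons overlap those of Mest on the same locus. The largest difference below 0 was that of the histone Hist1h2bc, with 182 and 179.5 TPM at P42, against 33.3 and 36.6 TPM at E15.5 by RNA-seq and 26.9 and 80.8 TPM at P42, against 261 and 264 TPM at E15.5 by footprint. Its message rose by 2.34 log2 and its footprints fell by 2.46, both under every scaling. The linker histone Hist1h1c moved likewise, with 91.7 and 63.5 TPM at P42, against 35.2 and 30.3 TPM at E15.5 by RNA-seq and 327 and 287 TPM at P42, against 1113 and 1139 TPM at E15.5 by footprint. Both assays called 64 genes in opposite directions, 4 of them under every scaling. As background, many histone messages lack a poly(A) tail, and the RNA-seq libraries were of poly(A) RNA; the part of this in the difference was not tested. By contrast, of the 8 airway secretory genes tested the footprint change exceeded the RNA-seq change in 0, with a median difference of 0.14 log2. It was below the RNA-seq change in 1, under every scaling. Members under 5 TPM by RNA-seq at either stage, Scgb1a1 and Scgb3a1 among them, were not tested. Of 15 type 2 genes the footprint change exceeded the RNA-seq change in 12, 4 of them under every scaling, with a median of 1.69.

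Mitochondrially encoded messages took 8.71% and 12.4% of all RNA-seq TPM at P42, against 6.20% and 6.55% at E15.5. Of the 13 genes, 4 rose and 1 fell by RNA-seq (median 0.59 log2), and 10 rose by footprint (median 1.92). mt-Nd2, a subunit of complex I, had 10960.3 and 17281 TPM at P42, against 3289.8 and 3608 TPM at E15.5 by RNA-seq. Its footprints were at 958 and 506 TPM at P42, against 71.1 and 74.6 TPM at E15.5, with the adult pair nearly 1 log2 apart. The signed lung change was below the mean change of the other 5 tissues for 12 of the 13 by RNA-seq, 9 under every scaling, and above it for 0. By footprint it was below that mean for 1, under every scaling, and above it for 0. Over all genes, 20.3% by RNA-seq and 6.15% by footprint were below, or 9.84% and 3.81% under every scaling.

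Genes of tissues next to the lung at dissection were also tested, and their part in the other results was not tested. For comparison, 10.1% of all genes rose and 53.5% fell by RNA-seq, and 18.6% rose and 22.8% fell by footprint. Of 13 cartilage genes 9 were tested, and these fell in both assays, 7 under every scaling, with Col2a1, the cartilage collagen, at 0.0180 and 0.0308 TPM at P42, against 14.8 and 17.1 TPM at E15.5. Of 10 squamous genes, the 5 tested by RNA-seq and the 4 tested by footprint fell, but 3 fell by RNA-seq without E15.5 RNA-seq replicate 1, with Krt15, a basal keratin, at 1.35 and 0.746 TPM at P42, against 69.9 and 40.2 TPM at E15.5. Of 13 cardiac genes, 5 fell by RNA-seq, 1 of them under every scaling, and 7 by footprint, each under every scaling. Their RNA-seq median of -0.96 log2 lay near the -1.11 of all genes. Without E15.5 RNA-seq replicate 1, 3 fell and 3 rose by RNA-seq, and 8 fell without P42 RNA-seq replicate 1 and 3 without P42 RNA-seq replicate 2. Nppa, the atrial peptide, had 18.3 and 9.77 TPM at P42, against 202 and 13.9 TPM at E15.5 by RNA-seq and 1.03 and 6.86 TPM at P42, against 131 and 136 TPM at E15.5 by footprint, and its RNA-seq call was lost without E15.5 RNA-seq replicate 1. Of 10 adipose genes, the 7 tested by RNA-seq and the 4 tested by footprint rose. The rises numbered 3 by RNA-seq without P42 RNA-seq replicate 1, and 2 by footprint without P42 Ribo-seq replicate 2. Cfd, the fat cell factor adipsin, was at 165 and 46.3 TPM in the adult RNA-seq pair and listed at 0 in the fetal pair.

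The change in lung was set against the mean change of the other 5 tissues as a signed difference, so a gene below 0 may have risen less or fallen further in lung. By RNA-seq 1798 of 14292 genes (12.6%) were above 0 and 2900 (20.3%) below, or 1544 (10.8%) and 1406 (9.84%) under every scaling. By footprint 2714 of 13261 (20.5%) were above and 816 (6.15%) below, or 1418 (10.7%) and 505 (3.81%). Genes of club cells, airspace macrophages and type 2 cells were at the upper end. The lung change of Scgb1a1 exceeded that of the other tissues by 16 log2, of Scgb3a1 by 10.50, of Chil3 by 9.68, of Lyz1 by 8.74 and of Sftpd by 8.49. All 15 granulocyte genes were above 0 in both assays, although 12 of them rose in lung. In kidney and liver some of them were lower at P42 than at E15.5. The neutrophil gene S100a8 changed by 4.36 log2 in lung, -3.86 in kidney and -6.95 in liver by RNA-seq, and Ngp, a neutrophil granule protein, by 4.62 in lung, -3.85 in kidney and -7.27 in liver. At the lower end by RNA-seq were Cym, Cldn6, Fmod and Pcsk6, a proprotein convertase, with differences of -6.67, -6.34, -6.19 and -5.51. Cldn6 averaged 294.8 TPM in E15.5 lung and 192.9 TPM in E15.5 kidney. Cym averaged 103 TPM in E15.5 lung and at most 0.320 TPM in the other 5 tissues at that stage. Crh, corticotropin-releasing hormone, was listed at 0 in both P42 lung RNA-seq libraries, against 32.9 and 35.7 TPM in E15.5 lung.

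**Figure D5:**
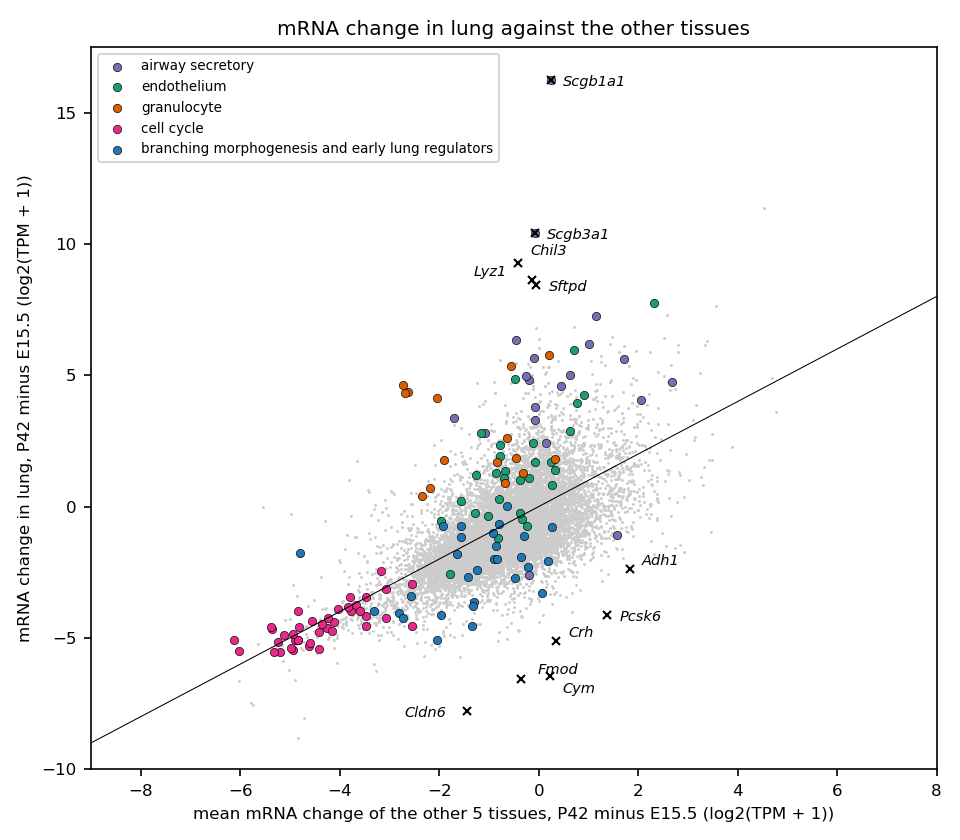
RNA-seq change in lung (P42 minus E15.5, log2(TPM + 1), vertical) against the mean change of the other 5 tissues (horizontal), 1 dot per tested gene, with the diagonal of equal change and crosses on 11 named genes. Scgb1a1, Scgb3a1 and Chil3 lie furthest above the diagonal, and Cym, Cldn6 and Fmod furthest below it.

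By footprint the lung genes also appeared at low levels in other adult tissues. Sftpc footprints averaged 37320 TPM in P42 lung and 370.3 TPM in P42 kidney, which is 0.992% of the lung level, while by RNA-seq the highest other tissue held 0.0163% of it. Scgb1a1 footprints reached 0.812% of the lung level in P42 kidney, where they changed by 10.10 log2 between the stages, against 0.62 by RNA-seq. For Sftpc the lung footprint change exceeded the mean of the other tissues by 0.96 log2, which was not called, against 3.34 by RNA-seq, which was.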

How the data were processed

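The deposited values are TPM, which the authors made from exon reads. Their notes name CASAVA 1.8.2 for base calling, cutadapt 1.8.1 for trimming, TopHat2 2.0.14 for alignment (build GRCm38.p6) and featureCounts 1.6.2 for counting, per the submitters' processing notes. Each stage and assay has its own deposited table, 4 in all. Which annotation release and which features entered the TPM total, and the read totals, are not known here. Gene identifiers were matched to GENCODE M21 (22029 of 22055), whose coordinates are 1-based, and promoters to RefSeq.

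Values were analysed as log2(TPM + 1). Models with a group for each of 6 tissues and 2 stages were fitted to all 24 libraries of an assay (12 residual degrees of freedom) with limma 3.58.1 in R 4.3.3, with a variance trend and Benjamini-Hochberg adjustment over all tested genes. The difference between assays was fitted over all 48 libraries, for genes with mean RNA-seq of at least 5 TPM at each lung stage. The difference from other tissues is the lung change minus the mean change of the other 5. Tables used Python 3.11.15, numpy 2.4.6 and pandas 2.3.3, and figures matplotlib 3.10.9. The code was tested on simulated data.

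The members and the gene lists were chosen with earlier results of these data known. The genes named are the 12 largest rises and falls called by both assays, up to 4 members of each list, those that differed most from other tissues or between assays, and fixed lung markers. Pdpn, Rtkn2, Cyp2f2, Ccdc39, Cdh5, Abca3, Lamp3, Tbx4 and Tcf21 are cell type markers, and Col1a1 was chosen after its values were seen. Some genes that meet the rule are not reported here. Alternatives were pseudocounts of 0.25 and 4, other scalings and filters, a replicate block, no variance trend, library weights, lung libraries alone, and each lung library left out. Scgb1a1 left out, and genes below 5% of their kidney footprint left out, were added after seeing the data. Whether replicate numbers pair the samples is not known, and only the replicate block used them in that way.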

Additional observations from a re-analysis of the deposited data

Results flagged for a closer look

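These results stand here because the change in lung differed from the mean change of the other 5 tissues in limma's test of that difference. By RNA-seq 1798 genes were above and 2900 below, and by footprint 2714 were above and 816 below.

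The genes named here were chosen as those that differed most by RNA-seq among genes also called that way by footprint. Their footprint call therefore follows from the choice. The differences given are by RNA-seq. Scgb1a1 differed by 16 log2, Scgb3a1 by 10.50, Chil3 by 9.68, Lyz1 by 8.74, Sftpd by 8.49 and Chil1 by 7.96. Below the other tissues were Cym by -6.67, Cldn6 by -6.34, Fmod by -6.19, Pcsk6 by -5.51, Crh by -5.49 and Ak4, an adenylate kinase of mitochondria, by -4.68. Crh was listed at 0 in P42 lung, so its value depends on the pseudocount. The RNA-seq change of Cldn6 was -6.26 log2 in kidney.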

How the results depend on the processing

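The main limits are the missing read totals, 2 replicates a group, the deposit of each stage in its own table, and scaling. The counts that moved over 1.5 times are given here beside the values as reported: 1445 genes higher and 7651 lower by RNA-seq, 2471 and 3027 by footprint, 1187 and 2734 by both, 3498 and 117 with a footprint change above and below the RNA-seq change, and, for lung against other tissues, 1798 above and 2900 below by RNA-seq and 2714 and 816 by footprint. With median-of-ratios scaling, 3472 and 2200 genes were higher and lower by RNA-seq, 1854 lower by footprint, 2183 and 1168 higher and lower by both, 570 and 900 above and below between the assays, and 1756 below other tissues by RNA-seq. Centring on the median gene gave 3311 and 2425 by RNA-seq, 2118 and 1451 by both, 639 and 775 between the assays, and 1754 (RNA-seq) and 1368 (footprint) below other tissues. An equal sum gave 1589 and 4762 by footprint, 4243 lower by both, 1810 and 282 between the assays, and 1425 and 2079 above and below other tissues by footprint. Leaving out Scgb1a1 gave 213 below between the assays and 2774 and 1651 above and below other tissues by RNA-seq. A pseudocount of 4 gave 1553 and 1983 by footprint, 762 and 1772 by both, and 1162 above other tissues by RNA-seq and 1645 and 459 above and below by footprint. No filter gave 6154 and 294 between the assays and 1277 below other tissues by footprint, and a filter of 5 TPM (20 TPM between the assays) 1583 higher by footprint, 726 higher by both, 1076 above between the assays and 472 below other tissues by footprint. Leaving out genes below 5% of their kidney footprint removed 81 higher and 25 lower footprint calls.

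With each lung library left out in turn, RNA-seq counts ran from 1256 to 1470 higher and 7258 to 8196 lower, footprint counts from 1903 to 2694 and 2462 to 3877, both assays from 1002 to 1213 and 2252 to 3442, and the assay difference from 2738 to 4386 above and 97 to 210 below, the last without P42 Ribo-seq replicate 1. Against other tissues they ran from 1591 to 1851 above and 2420 to 3535 below by RNA-seq, and from 2170 to 3154 above and 531 to 1379 below by footprint, 1379 being without P42 Ribo-seq replicate 1 and 531 without replicate 2. Across alternatives, named genes kept direction and side of the threshold in 3192 RNA-seq, 3140 footprint and 631 other values, lost the call in 96, 58 and 5, gained it in 15 and 18, and turned sign in 10 and 31.

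The sign turned for these genes, and the cause was not tested. With median-of-ratios scaling the RNA-seq change became 0.18 for Cldn10, 0.11 for Tbx2, 0.0755 for Ifit2, 0.25 for mt-Nd4l, 0.27 for Cnrip1 and 0.30 for Nkx2-1, and the footprint change 0.19 for Etv5, 0.28 for Ano1, 0.15 for F13a1, 0.20 for Copg2, 0.35 for Gm37013, 0.34 for Gm37388 and 0.0054 for Nkx2-1. Centring gave by RNA-seq 0.018 for Cldn10, 0.0898 for mt-Nd4l, 0.17 for Cnrip1 and 0.10 for Nkx2-1, and by footprint 0.0049 for Etv5, 0.11 for Ano1, 0.021 for Copg2, 0.16 for Gm37013 and 0.16 for Gm37388. Leaving out Scgb1a1 gave by footprint 0.0572 for Etv5, 0.16 for Ano1, 0.023 for F13a1, 0.0687 for Copg2, 0.21 for Gm37013 and 0.21 for Gm37388. An equal sum gave by footprint -0.13 for Iigp1, -0.39 for mt-Nd6, -0.31 for Tfrc, -0.0125 for Trf and -0.19 for Gm26741. With each Ribo-seq lung library left out, the footprint change ran from -0.46 to 0.0576 for Etv5, -0.64 to 0.45 for Ano1, -0.21 to 0.97 for Iigp1, -1.21 to 0.41 for Hbb-bs, -0.48 to 0.11 for Copg2, -0.63 to 0.54 for Gm37013 and for Gm37388, and -0.80 to 0.029 for Nkx2-1.

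A replicate block gave 1445 higher and 7652 lower genes by RNA-seq, 2471 and 3025 by footprint, 1187 and 2734 by both, 3510 and 129 between the assays, 1798 and 2900 against other tissues by RNA-seq and 2715 and 812 by footprint. Deviations of libraries that share a number correlated between -0.0515 and 0.163, which does not settle whether the numbers pair the samples.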

Other observations

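Clock genes rose more often than they fell. Of 18 tested by RNA-seq, 6 rose, all under every scaling, and 3 fell, 0 of them under every scaling (median 0.48 log2). Of 17 by footprint, 11 rose and 1 fell (median 1.23). Dbp, a clock output factor, had 113 and 70.1 TPM at P42, against 6.73 and 6.05 TPM at E15.5, and Nr1d2, a repressor of the clock, had 52.6 and 47.6 TPM at P42, against 9.19 and 8.84 TPM at E15.5. Arntl, the partner of Clock, had 1.05 and 1.07 TPM at P42, against 6.12 and 6.54 TPM at E15.5, and Nfil3, a repressor of Dbp targets, had 5.86 and 4.57 TPM at P42, against 27.1 and 27 TPM at E15.5. The exons of Arntl and Dbp overlap those of other genes, so their values are less certain. The time of day of dissection is not given in the sources used here. The signed lung change was above the mean change of the other 5 tissues for 0 clock genes in either assay, and below it for 6 by RNA-seq. Of those 6, 1 was below it under every scaling. Over all genes, 20.3% were below it by RNA-seq as deposited.

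Among neural and neuroendocrine genes, Stmn2, a microtubule regulator, rose with 54.1 and 54.3 TPM at P42, against 9.29 and 7.88 TPM at E15.5, and exceeded the change of the other tissues by 4.49 log2. Chga, a granule protein of neuroendocrine cells, had 0.201 and 0.129 TPM at P42, against 23.9 and 0.749 TPM at E15.5 by RNA-seq, with the fetal pair far apart, and 0.529 and 0.164 TPM at P42, against 14.5 and 13.9 TPM at E15.5 by footprint. Of the 10 genes of this list tested by RNA-seq, 1 rose and 6 fell, 3 of the falls under every scaling. Among all genes tested by RNA-seq, 10.1% rose and 53.5% fell.

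Of the mesothelial genes, Upk1b, a uroplakin, had 60.6 and 45.2 TPM at P42, against 17.8 and 14.3 TPM at E15.5, and Aldh1a2, which makes retinoic acid, had 15.3 and 7.56 TPM at P42, against 52.7 and 44.2 TPM at E15.5. The first rose under every scaling, and the second fell by 2.06 log2 as deposited but not under every scaling. Of 9 tested by RNA-seq, 1 rose and 5 fell, 0 of the falls under every scaling, against 10.1% higher and 53.5% lower of all genes. Without P42 RNA-seq replicate 2, 2 rose and 2 fell.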
